A study of Homo sapiens with 8 samples.

Results

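The baseline transcriptome of Hct116 cells was read from the 4 DMSO libraries of a series of 8. Hct116 is an established human colorectal carcinoma line of epithelial origin that grows as an adherent monolayer. For 16 h the cells received lenalidomide at 30 μM, a thalidomide derivative that redirects the ubiquitin ligase CRL4-CRBN, or the same volume of DMSO, the solvent of the drug. The 4 DMSO cultures carried no drug and no introduced allele, and the 4 lenalidomide libraries were not used here. The deposited labels give DMEM with serum as the medium, while the methods of the study describe a change to medium with labelled amino acids at the start of the treatment. Members were chosen by the label of the library alone, and all 23459 gene rows of the 4 libraries were described. The series design and the legend on the RNA data call the replicates biological, whereas the methods call the 4 replicates of the paired protein experiment technical. Of those replicates 2 were label swaps, in which the isotope labels are exchanged, and the sources used here do not say which libraries belong to them. The spread given below is the spread between these 4 libraries, which may be technical in part.

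The colonic epithelium renews itself from stem cells at the base of its crypts, whose daughters become absorptive enterocytes, mucus-secreting goblet cells and hormone-secreting enteroendocrine cells. A carcinoma line keeps some features of that lineage, such as keratins and cell junctions, and loses others, and it adds the machinery of steady growth: ribosomes, chaperones, glycolysis and the cell cycle. Most genes used by every cell start at promoters rich in CpG dinucleotides, whereas many genes of a single tissue start at promoters that hold few of them.

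The unit is the count of reads on the exons of a gene. CPM is that count scaled to a library total of 1000000, and CPM per kilobase is the CPM divided by the deposited exonic width in kilobases. Levels of different genes are compared in CPM per kilobase, also written per kilobase, and a level given with no unit is in CPM per kilobase. The rows that took the most counts are listed in CPM, which depends on the width of a row as well as on its level. Values are the mean ± SD over the 4 libraries unless each library is given, always in the order of replicates 1 to 4. Where genes are said to overlap or not, only the spread of the 4 libraries is meant. Errors of the deposited widths, which can change a ratio between genes, are not covered by it. The libraries held 37433591, 35643858, 35268940 and 37473413 counts, so that 3 counts, the limit that a count of 0 allows, stood at 0.0801 to 0.0851 CPM. Intervals of this kind cover counting error only, since copies made by PCR cannot be told from separate molecules. Between 16953 and 18476 genes had counts in a library, and between 12450 and 12641 reached 1 CPM.

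A gene is called detected where all 4 libraries reached 1 CPM, which 12296 genes did, 52.4% of the rows. In 509 genes the libraries fell on both sides of 1 CPM, 7271 had counts but stayed under 1 CPM in each library, and 3383 had 0 counts in all 4, 14.4% of the rows. The median level over all rows was 0.758 CPM per kilobase, and among detected genes the 5th, 50th and 95th percentiles were 0.589, 8.05 and 101. At the top, 619 genes had a mean of at least 100 CPM per kilobase, 2.64% of the rows, and 26 reached 1000. The 932 genes with the most counts held 50% of all counts and 5286 held 90%. Just above the detection level by mean CPM lay SNORD31, a C/D box snoRNA gene, the gene MRO and TMEM37, with means of 1.001, 1.002 and 1.003 CPM, and just below it CATSPER3, ACRC and TMEM86B at 0.9997, 0.9992 and 0.998 CPM, and each of these 6 had libraries on both sides. Protein-coding genes gave 97.4 ± 0.146% of the counts, with 11541 of 18816 rows detected (61.3%), against 308 of 1932 long noncoding RNA rows (15.9%). The histogram of levels shows these classes.

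**Figure D1:**
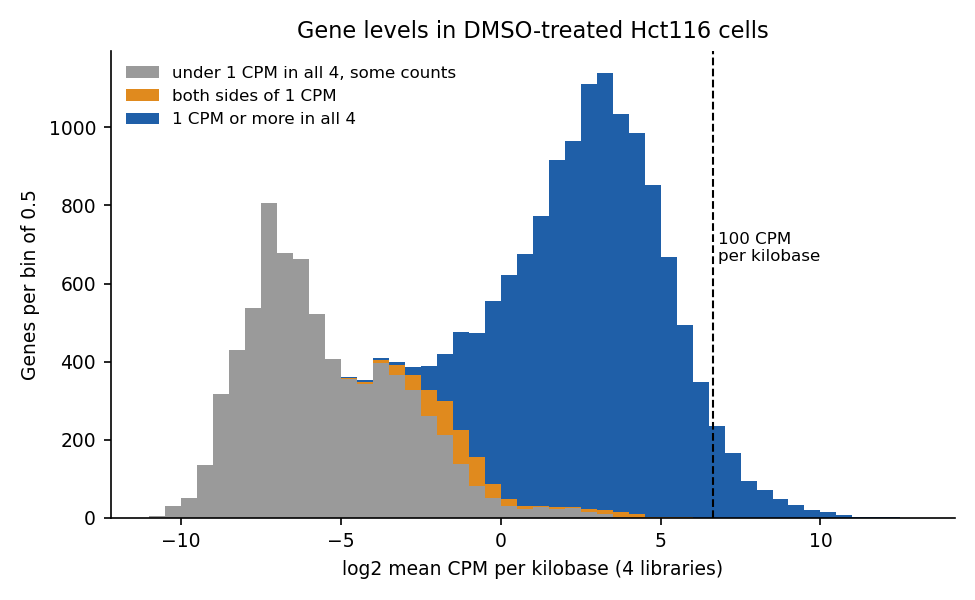
Number of genes (vertical axis) by the log2 of the mean level in CPM per kilobase (horizontal axis, bins of 0.5), for genes with any counts, coloured by whether the 4 libraries were under, on both sides of or at 1 CPM or more. The 12296 detected genes form the broad right-hand group, and the dashed line marks 100 CPM per kilobase, which 619 genes reached.

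Chaperones led the list by counts. HSP90AB1, the constitutive cytosolic HSP90 that folds kinases and receptors, had 11211, 10009, 12506 and 10373 CPM, more than any other row in each library. Its inducible relative HSP90AA1 followed at 7945 ± 462 CPM and HSPA8, the constitutive HSP70, at 6419.6 ± 295 CPM. Per kilobase HSP90AB1 stood at 3795 ± 381 and HSP90AA1 at 1772 ± 103, a ratio of 2.14 with no overlap between libraries. HSP90B1, the HSP90 of the endoplasmic reticulum, reached 2179 ± 163 CPM, so that 3 HSP90 genes and HSPA8 stood among the 20 rows with the most counts. Those 20 rows held 7.56, 7.34, 8.25 and 7.34% of the counts of the 4 libraries, with the largest share in replicate 3.

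The other rows of that list covered the cytoskeleton, translation, the nucleolus and metabolism. AKAP12, a scaffold for protein kinase A, had 5969 ± 787 CPM and FAT1, a giant cadherin, 3800.4 ± 402 CPM, the first over an exonic width that brings it to 671 ± 88.5 per kilobase. ACTG1, the gamma cytoplasmic actin, exceeded ACTB, the beta form, by 2.45 times per kilobase (1781 ± 67.6 against 726 ± 45.8), again with no overlap. EZR, which ties actin to the membrane of microvilli, stood at 3065 ± 332 CPM. The nucleolar proteins NCL and NPM1 had 3492 ± 399.6 and 2298 ± 261 CPM, the translation elongation factors EEF2 and EEF1A1 2608 ± 77.4 and 2413 ± 147 CPM, and the glycolytic enzymes ENO1 and PKM 3409.9 ± 209 and 2173 ± 162 CPM. PDP1, a phosphatase that activates pyruvate dehydrogenase, had 2914 ± 69.2 CPM with a coefficient of variation (CV) of 2.37% over the libraries. PTMA, DCBLD2, a membrane protein, and HNRNPU, a nuclear RNA-binding protein, stood at 2762 ± 116, 2049 ± 96.3 and 1956 ± 165 CPM. The 20 rows also held TMSB10, described below, and MTRNR2L2, a copy of part of the mitochondrial ribosomal RNA, at 3247 ± 209.6 CPM. How many of the MTRNR2L2 counts came from mitochondrial RNA itself was not tested.

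Among rows of at least 200 exonic bases, the highest level per kilobase was that of TMSB10, a small protein that binds actin monomers, with 5488, 5982, 6022 and 5448 in the 4 libraries (5735 ± 309). Its relative TMSB4X stood at 152 ± 7.37, 37.8 times lower. RMRP, the RNA of the enzyme RNase MRP, had 4632, 6789.9, 3573 and 6187, so that its range enclosed that of TMSB10 and the order of the pair was not fixed by these libraries. Of the 20 rows highest on this scale, 7 were cytosolic ribosomal protein genes, among them RPLP2, RPS6, RPLP1, RPL24 and RPS4X, led by RPL19 at 1886 ± 76.2. S100A6, a calcium-binding protein, stood at 1475 ± 144 and RPPH1, the RNA of RNase P, at 1368 ± 382.

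Promoter sequence was set beside the levels, since the CpG content named above can be counted in it. The 250 bases before the start were read from RefSeq on GRCh38.p14 for the 11079 protein-coding rows with 1 listed start. They are shown for the highest protein-coding row per kilobase, TMSB10, for HSPA8, and for FABP1 and ALPI, enterocyte genes with 0 counts in all 4 libraries, with each CG in capitals, 5′ to 3′ on the strand of the gene:
TMSB10 (chr2:84905406-84905655, plus strand, 31 CG): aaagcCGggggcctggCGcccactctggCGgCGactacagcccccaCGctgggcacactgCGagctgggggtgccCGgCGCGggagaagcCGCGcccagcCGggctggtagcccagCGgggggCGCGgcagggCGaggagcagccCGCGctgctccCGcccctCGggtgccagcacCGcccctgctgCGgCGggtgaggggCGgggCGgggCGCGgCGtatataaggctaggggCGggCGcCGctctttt
HSPA8 (chr11:123062137-123062386, minus strand, 22 CG): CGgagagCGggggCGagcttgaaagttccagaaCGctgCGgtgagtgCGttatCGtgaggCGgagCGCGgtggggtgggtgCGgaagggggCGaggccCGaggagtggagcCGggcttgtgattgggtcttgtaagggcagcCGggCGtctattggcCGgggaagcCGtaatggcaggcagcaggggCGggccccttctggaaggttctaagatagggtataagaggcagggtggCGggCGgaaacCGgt
FABP1 (chr2:88128063-88128312, minus strand, 4 CG): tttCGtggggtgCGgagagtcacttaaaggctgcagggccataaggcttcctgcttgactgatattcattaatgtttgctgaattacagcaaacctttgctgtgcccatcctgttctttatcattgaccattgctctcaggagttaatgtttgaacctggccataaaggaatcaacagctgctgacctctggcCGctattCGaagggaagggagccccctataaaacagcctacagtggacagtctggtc
ALPI (chr2:232455903-232456152, plus strand, 5 CG): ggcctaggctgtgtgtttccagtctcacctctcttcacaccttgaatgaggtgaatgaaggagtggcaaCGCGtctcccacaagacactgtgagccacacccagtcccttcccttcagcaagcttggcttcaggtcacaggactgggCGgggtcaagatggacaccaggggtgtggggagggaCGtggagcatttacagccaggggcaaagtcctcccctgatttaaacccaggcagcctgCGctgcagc

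At least 10 CG dinucleotides were held by 27.5% of the 1157 promoters of rows with 0 counts, 40.1% of the 2987 with counts under 1 CPM, 75.8% of the 579 detected below 1 CPM per kilobase, 90.7% of the 2913 from 1 to 10, 95.2% of the 2899 from 10 to 100 and 93.8% of the 355 at 100 or more. In rows with libraries on both sides of 1 CPM it was 72% of 189, and over the 11079 protein-coding rows 70.6%. The exceptions ran both ways, since 318 of the 1157 silent genes had at least 10 CG, and KRT8 (1 CG) and ANXA1 (0 CG) stood at 209 ± 10.9 and 157 ± 3.31 per kilobase. The letters TATAAA on the strand of the gene were in 19.5% of the promoters of silent rows, 12.4% of those under 1 CPM and 12.2% of those on both sides of it. Among detected rows the share was 4.49% below 1 CPM per kilobase, 2.23% from 1 to 10, 2.86% from 10 to 100 and 9.86% at 100 or more, against 7.47% over the 11079. The letters TTCCGG on either strand rose from 6.22% of silent to 36.6% of the highest class, and were in 50% of 60 ribosomal protein promoters. CCAAT on either strand was in 33.5% and 45.6% of the same classes, and GGGCGG in 27.4% and 67.6%. These are letter matches in a fixed window and not measured binding sites.

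**Figure D2:**
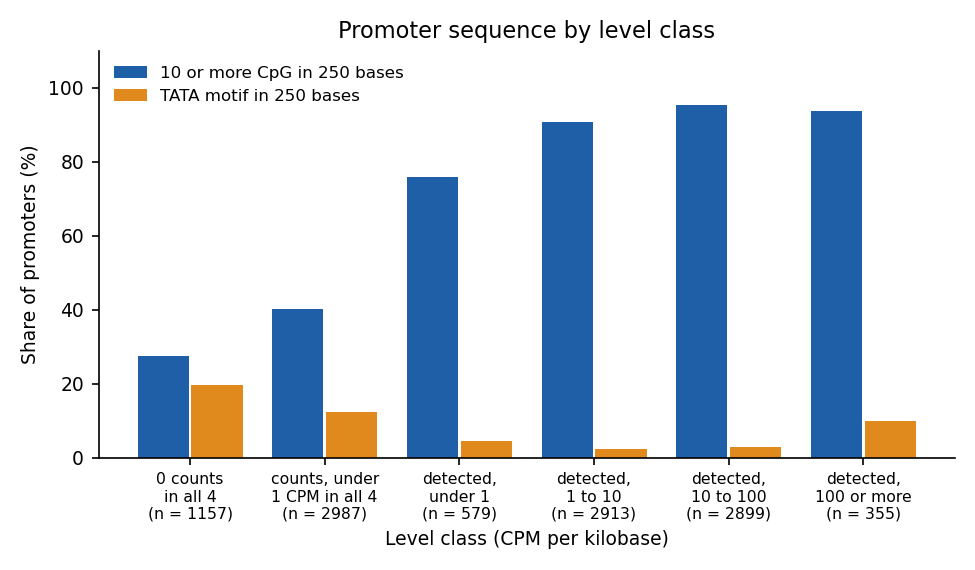
Share of promoters (vertical axis, percent) with at least 10 CpG in the 250 bases before the start (blue) and with the TATA motif on the strand of the gene (orange), by level class of the gene (horizontal axis, number of genes below each class). The CpG share rises from 27.5% in silent genes to above 90% from 1 CPM per kilobase upward, while the TATA share is lowest, 2.23%, in the class from 1 to 10.

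The families that make and fold protein were detected nearly in full, against 52.4% of all rows and 61.3% of protein-coding rows. Of the cytosolic ribosomal protein genes 84 of 88 were detected, with a median of 290.0 CPM per kilobase, 68 of them at 100 or more, and together they gave 4.03% of the counts. Translation factors were detected in 63 of 69 cases (median 38.1), led by EEF1B2, a nucleotide exchange factor for the elongation factor, at 911 ± 56.3. Both EIF3C and EIF3CL, near-identical copies of an initiation factor subunit, had 0 counts, while EIF3A and EIF3E of the same complex stood at 268 ± 24.1 and 226 ± 15.6. The chaperonin CCT, which folds actin and tubulin, had 9 of 11 rows detected (median 279), its subunits CCT3, CCT8 and CCT7 at 432 ± 9.51, 428 ± 21.6 and 392 ± 12.2. The proteasome had 35 of 39 (median 85.9), led by PSMA6 at 298 ± 7.19. The exceptions were specialised subunits: PSMB9 of the immunoproteasome fell on both sides of 1 CPM (1.15, 1.07, 1.16 and 0.987), PSMB8 stayed below it and PSMA8, the testis form, had 0 counts. All 37 of 37 subunit genes of respiratory complex I were detected (median 35.2), with NDUFS5 highest at 523 ± 12.1.

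Glycolytic isoenzymes differed in level. Of 26 enzyme genes 17 were detected, and 8 exceeded 100 CPM per kilobase. LDHB, the heart form of lactate dehydrogenase, stood at 1101, 1055, 1118 and 1059 in the 4 libraries and LDHA, the muscle form, at 379.7, 419, 374 and 419, a ratio of 2.72 with no overlap. GAPDH (996 ± 16.6) and ENO1 (925 ± 56.6) overlapped, PKM followed at 654 ± 48.9, TPI1 at 376 ± 12.4, PGK1 at 120.3 ± 8.45 and ALDOA at 106 ± 6.84, and ENO3, the muscle enolase, fell on both sides of 1 CPM. Among transporters of glucose and lactate, SLC16A1, the lactate transporter MCT1, stood at 55.2 ± 2.16 and its partner BSG (CD147) at 71.1 ± 1.32, above the glucose transporter SLC2A1 at 20.3 ± 1.1. Of 389 solute carriers 203 were detected (52.2%), against 52.4% of all rows and 61.3% of protein-coding rows. The most abundant were SLC25A3, the mitochondrial phosphate carrier (203 ± 15.2), and SLC38A2, an amino acid transporter (171 ± 14).

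The junction and keratin genes were those of an epithelium. Of 25 epithelial genes 23 were detected, with a median of 21.8 CPM per kilobase. KRT19, a keratin of simple epithelia, had 553, 569, 628 and 544, and EPCAM, an adhesion molecule of epithelial cells, 359, 335, 348 and 328, both within a narrow range. KRT18 (213 ± 13.6) and KRT8 (209 ± 10.9), which pair in one filament, overlapped. Junction plakoglobin JUP stood at 168 ± 11.5, and the desmosome and tight junction genes DSG2, DSP and TJP1 at 56.3 ± 2.34, 55 ± 6.55 and 52 ± 2.13. The members under 1 CPM were the claudins CLDN1 and CLDN2. P-cadherin CDH3 exceeded E-cadherin CDH1 by 2.44 times (28.7 ± 0.399 against 11.7 ± 0.568, no overlap). Of 56 keratin genes 10 were detected, and the keratin of differentiated enterocytes, KRT20, stood at only 1.41 ± 0.149. In a bulk library a low level cannot show whether few cells or little RNA per cell gave it.

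The markers of differentiated intestinal cells were nearly all below 1 CPM. Of 24 enterocyte markers KRT20 alone was detected, and FABP1, ALPI, APOA4, CEACAM6, GUCA2A, GUCA2B and CA4 had 0 counts in all 4 libraries, under 0.0851 CPM. Of 13 goblet and secretory markers none was detected, with SPINK4, TFF1, TFF2 and TFF3 at 0, and of 11 enteroendocrine markers none, with CHGA, INSM1, NEUROG3 and SST at 0. The highest of the last list was TPH1, the enzyme of serotonin synthesis, at 0.208 ± 0.0637. None of 14 mucin genes was detected. The highest was MUC1 at 0.125 ± 0.0366, MUC4 fell on both sides of 1 CPM and MUC21 had 0 counts.

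Stem cell and progenitor genes were mixed. BMI1, a polycomb protein, and CD44, the hyaluronan receptor, stood at 52.8 ± 3.2 and 52.2 ± 1.54, and RNF43, a brake on Wnt signalling, and PROM1 (CD133) at 17.6 ± 1.18 and 12.1 ± 0.85. In all 11 of 15 markers of this list were detected (median 4.03). The crypt stem cell markers LGR5, OLFM4 and SMOC2 were under 1 CPM, and ASCL2, a stem cell transcription factor, had 0 counts. Among intestinal transcription factors 12 of 19 were detected, led by KLF5 (24.4 ± 1.14), SOX9 (20.8 ± 1.19) and HES1 (10.4 ± 0.755). CDX2, which sets intestinal identity, had 3.62, 3.74, 3.57 and 3.47 in the 4 libraries. GATA4 and ATOH1, the latter needed for secretory cells, had 0 counts.

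Markers of other cell types were mostly below 1 CPM, and at that level least so the mesenchymal ones. Of 16 immune markers CD68 was detected (2.44 ± 0.318), HLA-DRA fell on both sides of 1 CPM, and CD3D and CD3E had 0 counts. Of 8 endothelial markers ESAM was detected at 0.48 ± 0.0522 and CLDN5 had 0 counts, and none of 14 germ cell markers was detected, with PRM1, PRM2 and TNP1 at 0. Mesenchymal markers were detected in 7 of 19 cases, led by PDGFRA (6.82 ± 0.394). At a detection level of 1 CPM per kilobase their share was 15.8% in place of 36.8%. Neural markers then had 28.6% and erythroid markers 16.7%, so the mesenchymal list no longer had the largest share. SNAI1 and ZEB1, which repress E-cadherin, stood at 2.28 ± 0.168 and 1.39 ± 0.09, and VIM, the intermediate filament of mesenchymal cells, at 0.765 ± 0.107. TWIST1 fell on both sides of 1 CPM and TWIST2 had 0 counts.

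Some genes on the marker lists of other tissues were detected, at unlike levels. TNNT1, the troponin T of slow skeletal muscle, had 103, 89.95, 118 and 88.5 CPM per kilobase, while MYOD1, MYOG, CKM and MYH7 had 0 counts and DES fell on both sides of 1 CPM. TTN, also counted as detected, reached 1 CPM only through its exonic width of 117846 bases and stood at 0.0215 ± 0.00917 per kilobase. SYT1, a calcium sensor of synaptic vesicles, had 32.6, 29.7, 29.8 and 28.1, and the neuronal tubulin TUBB3 and microtubule protein MAP2 stood at 15.8 ± 0.919 and 1.51 ± 0.194. The synaptic vesicle protein SYP fell on both sides of 1 CPM. CPS1, a urea cycle enzyme on the hepatocyte list, stood at 9.67 ± 0.609, near the median of detected genes (8.05). HP, F9 and APOC3 of that list had 0 counts. The dot plot of marker lists shows these points to the right of their rows.

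**Figure D3:**
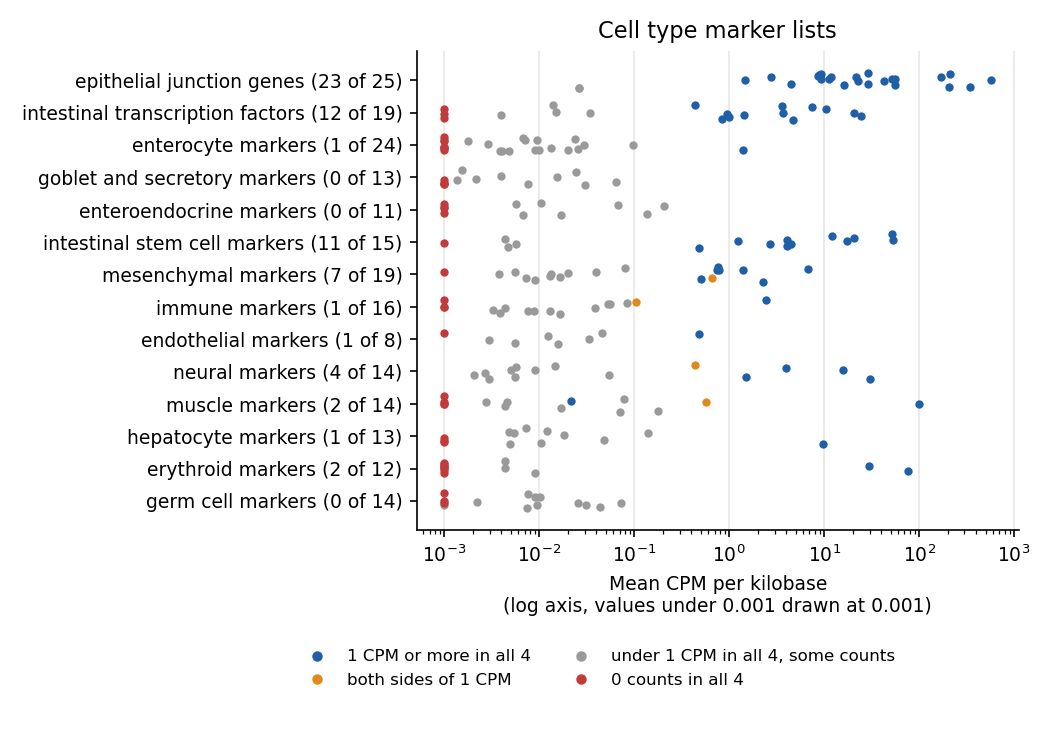
Mean level in CPM per kilobase (horizontal log axis, values under 0.001 drawn at 0.001) of each member of 14 cell type lists (rows, with the number detected of the number in the table). Each point is 1 gene, coloured by its state in the 4 libraries. The epithelial list lies to the right with 23 of 25 detected, and TNNT1, HBE1 and SYT1 are the points farthest to the right in the muscle, erythroid and neural rows.

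The globin genes gave a localised exception. HBE1, the embryonic beta-like globin, had 72.4, 89.3, 59.4 and 81.6 CPM per kilobase and HBG2, a fetal one, 30.01, 28.8, 33.1 and 27.6, while HBB, HBG1, HBA1, HBA2, ALAS2, SLC4A1 and the erythroid factor GATA1 had 0 counts. HBA1 and HBA2, and HBG1 and HBG2, are near-identical pairs whose counts are uncertain. Both genes lie on the minus strand of chromosome 11 beside olfactory receptor genes, and of 372 olfactory receptor rows only 4 were detected, OR51B5, OR51B4, OR51B2 and OR51I1, all in this interval. OR51B5 had 74.9, 80.2, 69.3 and 76.1 per kilobase, which overlaps HBE1, and OR51B4 14.7, 14.2, 12.6 and 13.4. OR51B2 stood at 5.98 ± 0.585 and OR51I1 at 5.62 ± 1.93. The GRCh37 interval chr11:5220965-5539661 held 18 rows, 13 on the minus strand, of which these 6 were detected, and 5 on the plus strand, of which none was and the highest, OR52D1, had 0.531 ± 0.246 CPM. In the GENCODE annotation the models of HBG2, HBE1 and OR51B5 end upstream at 5526835, 5526882 and 5526882 and share exonic bases (37 between HBG2 and HBE1, 84 between HBE1 and OR51B5), while OR51B4, OR51B2 and OR51I1 share none with them. The counts were made on UCSC known gene models, whose shared bases were not measured. How the counts divide between globin mRNA and longer transcripts through the interval was not tested.

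The HOX genes, which record the position of a tissue along the body axis, were detected in unequal shares of the 4 clusters. In HOXA 10 of 11 genes were detected, in HOXB 8 of 10, in HOXC 5 of 9 and in HOXD 1 of 9. Over all rows the share was 52.4%, and over protein-coding rows 61.3%. At a detection level of 1 CPM per kilobase HOXC fell to the share of HOXD, 11.1%. The highest were HOXB7 (33.7, 35.8, 38.9 and 33.1) and HOXA9 (34.3, 35.4, 27.1 and 36.3), which overlapped. HOXC peaked at HOXC9 (9.01 ± 1.81), and the HOXD gene detected was HOXD8 (1.34 ± 0.179). Within HOXA and HOXB the levels were highest at numbers 7 to 10, with HOXA13 at 2.44 ± 0.495, HOXB13 at 1.44 ± 0.0965 and HOXB1 at 0 counts. HOXC12, HOXD1 and HOXD9 also had 0 counts, and HOXC8 fell on both sides of 1 CPM.

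**Figure D4:**
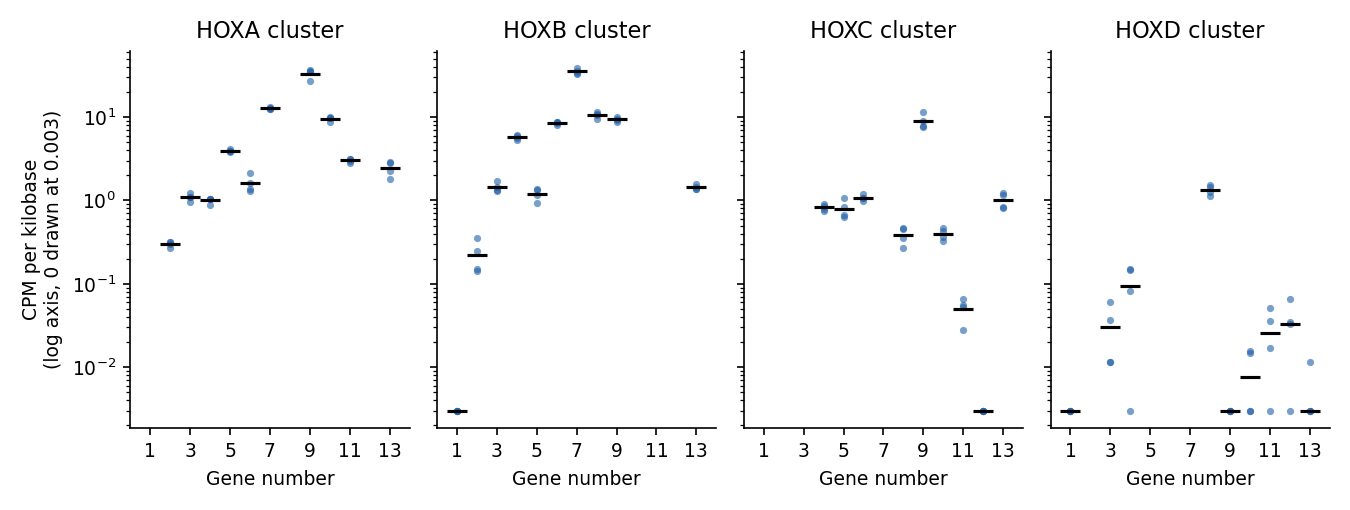
Level of the HOX genes in CPM per kilobase (vertical log axis, 0 drawn at 0.003) by their number in the cluster (horizontal axis), for HOXA, HOXB, HOXC and HOXD (1 gene not drawn). Points are the 4 libraries and bars the means. HOXA9 (mean 33.3) and HOXB7 (mean 35.4) are the peaks, and in HOXD a single gene, HOXD8, rises above 1.

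Other families of regulators were detected in shares below and above the 52.4% of all rows and the 61.3% of protein-coding rows. SOX4 led the SOX factors at 50.1 ± 2.13, with 6 of 19 detected, and FOXM1, a driver of mitotic genes, led the forkhead factors at 34.4 ± 1.62 (20 of 43 detected). GATA2 and GATA6 stood at 2.75 ± 0.0973 and 1.01 ± 0.103, and GATA1, GATA4 and GATA5 had 0 counts. The general factors SP3 and SP1, which bind GC-rich promoters, overlapped at 31.8 ± 2.63 and 30.2 ± 1.23. PAX factors (3 of 9) and T-box factors (4 of 16) were low, led by PAX9 (1.39 ± 0.0741) and TBX18 (2.54 ± 0.0948), and of the NKX factors 3 of 13 were detected. Of 48 nuclear receptors 28 were detected, with the clock repressor NR1D2 highest (32.1 ± 1.42), and RARB, a retinoic acid receptor, and NR0B2 had 0 counts. Of 525 ZNF genes 361 were detected, most at modest level (median 1.7).

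Growth factor receptors were led by MET, the receptor for hepatocyte growth factor, with 96.3, 93.1, 93.8 and 96.1, 2.41 times the next, RYK, a Wnt co-receptor (39.3 ± 3.4), with no overlap. EPHA2 (24.1 ± 2.13) and AXL (20.5 ± 0.443) followed, EGFR stood at 9.14 ± 0.125 and ERBB2 at 7.6 ± 0.215, and ALK had 0 counts. Of 57 receptor tyrosine kinase rows 33 were detected (57.9%), against 52.4% of all rows and 61.3% of protein-coding rows. Among ligands, BMP4 stood at 65.9 ± 4.6 and WNT16 at 34.9 ± 2.39, while the other detected Wnt genes, WNT10B, WNT3 and WNT9A, were at 1.89 ± 0.166, 1.57 ± 0.174 and 0.611 ± 0.179, and WNT3A fell on both sides of 1 CPM. FGF19, the intestinal hormone that restrains bile acid synthesis, led the fibroblast growth factors at 6.53 ± 0.0913. FZD6 was the highest Frizzled receptor (33.2 ± 1.73). HTR7, a serotonin receptor, stood at 19.9 ± 1.04 among 33 amine receptor rows of which 5 were detected.

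Of the integrins, receptors for the matrix, 15 of 31 were detected (48.4%), against 52.4% of all rows and 61.3% of protein-coding rows. ITGB1, the shared beta chain of many integrins, stood at 171 ± 2.51, 10.8 times ITGB4 (15.8 ± 0.174), with the alpha chains ITGA6 and ITGA3 at 50.6 ± 1.13 and 30.8 ± 0.563. The leukocyte chain ITGB2 had 0 counts. LAMC1 led the laminins (20.6 ± 1.9, 9 of 12 detected) and COL12A1 the collagens (25.1 ± 2.86, 16 of 44 detected, or 11.4% of the collagens at 1 CPM per kilobase). CLDN7, CLDN4 and CLDN12 led the claudins at 28.7 ± 1.76, 22.8 ± 0.93 and 17.8 ± 1.43, and PCDH7 the protocadherins at 18.9 ± 1.73. The protocadherin alpha rows share 3′ exons, and PCDHA1 to PCDHA13 hold 153 or 154 counts each in replicate 1, so that they cannot be read as separate genes. S100A10 and S100A4 followed S100A6 at 116 ± 4.4 and 101 ± 18.6, and the myeloid pair S100A8 and S100A9 had 0 counts.

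The cell cycle genes stood well above the median of all rows. For the counts below, the share detected was 52.4% over all rows and 61.3% over protein-coding rows. Each of 19 proliferation genes was detected, with a median of 95.3 CPM per kilobase, among them the replication proteins MCM7 (219 ± 7.47) and PCNA (209 ± 19.5) and the nucleotide reductase subunit RRM2 (191 ± 7.36). MKI67 (97.6 ± 8.74) and TOP2A (95.7 ± 3.05) overlapped. The mitotic cyclin CCNB1 stood at 376 ± 14.4, 1.77 times CCND1, the main D-type cyclin (212 ± 12.8), which was 33.4 times CCND3 (6.36 ± 0.399). CCND2 had 0, 0, 0 and 1 counts in the 4 libraries and CCNA1, the germ cell cyclin A, 0. All 8 inhibitors of cyclin-dependent kinases were detected, CDKN1A (p21) at 35.3 ± 1.72 and CDKN2A at 6.36 ± 0.79. Clustered histone genes, whose mRNAs mostly lack a poly(A) tail, were detected in 39 of 69 cases and led by the linker histone HIST1H1C (1188 ± 87.7).

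Each of 26 genes often altered in colorectal cancer was detected, against 52.4% of all rows and 61.3% of protein-coding rows. The 37 complex I subunit genes were also detected in full, so this is not particular to the cancer genes. MYC stood highest at 139, 141, 159 and 133, followed by CTNNB1, the beta-catenin of the Wnt pathway, at 99.4, 100.3, 88.2 and 98.9, with no overlap between the pair. Among RAS genes, NRAS (56.9 ± 4.55) exceeded HRAS (39 ± 5.51) in each library. APC stood at 12.7 ± 0.741 and SMAD4 at 10.9 ± 0.466. In the mismatch repair system, which corrects copying errors, MSH6 stood at 64.8 ± 1.49, MSH3 at 2.89 ± 0.262 and PMS2 at 18.4 ± 0.722. The maintenance DNA methyltransferase DNMT1 (87 ± 9.24) exceeded DNMT3B (8.39 ± 0.146) by 10.4 times and DNMT3B exceeded DNMT3A (1.69 ± 0.184) by 4.97 times, and DNMT3L had 0 counts.

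The genes on which the drug of the study acts were present in these solvent-treated cells, except those of lymphocytes. CRBN, the substrate receptor to which lenalidomide binds, had 9.33, 10.3, 8.98 and 10.9 CPM per kilobase, and DDB1, the adaptor of the ligase, 80.9, 80.2, 79.6 and 81.2. The scaffolds CUL4A and CUL4B stood at 46.4 ± 2.06 and 38.2 ± 1.25. Of the proteins known to be degraded with the drug, CSNK1A1 (casein kinase 1 alpha) had 134, 138, 127 and 131 and ZFP91, a zinc finger protein, 59.5, 55.8, 62.7 and 56.8. GSPT1, a translation termination factor degraded with a related compound and not with lenalidomide, stood at 59.7 ± 5.82. IKZF1 and IKZF3, factors of the lymphoid lineage, were under 1 CPM with 1, 1, 0 and 3 and 6, 5, 5 and 8 counts. CSNK1A1L, a copy of CSNK1A1, stood at 1.94 ± 0.219. The genes of UBA1, the ubiquitin-activating enzyme, and COPS5, a subunit of the COP9 signalosome, stood at 37 ± 1.64 and 32.7 ± 1.11.

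Several families had few or no detected members. No keratin-associated protein gene of hair was detected among 92 rows (66 at 0 counts), no beta-defensin among 35 (27 at 0), no interferon among 22 (14 at 0), no UDP-glucuronosyltransferase among 21 (3 at 0) and no taste receptor among 27 (7 at 0). Single members of the hair and taste families, KRTAP2-3 and TAS2R5, fell on both sides of 1 CPM. Of 45 chemokine genes CXCL16 was detected (7.38 ± 0.358) and 26 had 0 counts, and CXCL8, a chemokine of inflamed epithelium, had 0.508, 0.589, 0.425 and 0.64 CPM. Of the interleukin list 5 of 45 rows were detected, of which IL4R and IL6R are receptors, and IL18 was highest at 23 ± 1.53. Cytochrome P450 genes were detected in 13 of 56 cases, led by CYP51A1 of cholesterol synthesis (60.3 ± 4.83) and CYP24A1, which breaks down vitamin D (25.8 ± 0.724). Against this background MAGEB2, a cancer-testis antigen normally confined to testis, had 112, 119, 105 and 119. Its neighbour in name MAGEB1 stood at 1.52 ± 0.233 and MAGEA3 at 2.59 ± 0.273, and 36 of 71 rows of that list had 0 counts.

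Noncoding RNA was led by the RNAs of ribonucleoprotein enzymes. Beside RMRP and RPPH1, MALAT1, a nuclear RNA, stood at 212 ± 17.5, TERC, the telomerase RNA, at 66.2 ± 11.9, and the snoRNA hosts GAS5 and SNHG1 at 71.9 ± 10.7 and 66.5 ± 11.4. H/ACA box snoRNA genes, which guide pseudouridine formation, were detected in 43 of 99 cases, C/D box genes, which guide methylation, in 30 of 228, and Cajal body RNA genes in 13 of 23, led by SNORA24 (329 ± 88.5), SNORD22 (242 ± 61) and SCARNA12 (304 ± 40.1). These rows are short, and at a detection level of 1 CPM per kilobase the shares of the 3 classes were 67.7, 41.7 and 87% in place of 43.4, 13.2 and 56.5%, and at 0.5 CPM that of C/D box genes was 23.7%. Of 1258 rows taken as microRNA genes by symbol 26 were detected and 847 had 0 counts. Of the 1218 rows typed as microRNA 17 were detected and 838 had 0 counts. For 15 detected rows typed as microRNA and placed by GENCODE, 10 lay inside an exon of another gene, and MIR3652, the highest at 1615 ± 351, lies in HSP90B1, so that such counts are not mature microRNA levels. Overlap with other genes was not examined for the snoRNA and Cajal body RNA rows, whose levels may also hold reads of other transcripts. Of 504 LINC rows 46 were detected, led by LINC00998 (67.9 ± 1.61), and of 620 antisense rows 113, led by LRRC75A-AS1 (155 ± 15.3). The LINC rows were taken by symbol and at least 19 of them are typed as protein-coding, so the symbol alone does not make a row noncoding. Without a stated strand setting, reads of an antisense gene and of its partner cannot be told apart.

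The spread between libraries was small for most genes. The median CV of CPM over detected genes was 6.72%, with 5th and 95th percentiles of 2.24 and 17.5%. It fell with level, from 10.7% in the 3234 genes of 1 to 10 CPM to 6.07% in the 6632 of 10 to 100 and 5.04% in the 2430 above, and beyond counting error these medians were 6.72, 5.17 and 4.88%. The common biological coefficient of variation, the spread beyond counting that edgeR fits across genes, was 7.18% over 13492 genes. In the 6 library pairs the chi-square of the counts was 5.59 to 22.1 per degree of freedom, above the value near 1 that counting error alone gives, so no library was a copy of another. Pearson correlations of log2 CPM across detected genes were 0.995 to 0.998, a description over genes that are not independent. Replicate 3 stood apart on the first principal component, which held 59.3% of the variance (scores 0.03, -0.47, 0.80 and -0.37). Without replicate 3 the median CV was 4.87% and the common coefficient 5.06%.

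Variable genes, those with a CV beyond counting error of at least 25%, numbered 38 of the 9062 genes with a mean of 10 CPM or more (0.419%). Of these 13 were snoRNA genes and 13 protein-coding, and 17 had an exonic width under 200 bases. The snoRNA genes are few at this level: 6 of 6 C/D box and 7 of 13 H/ACA box genes of 10 CPM or more were variable. In 29 of the 38 both of replicates 2 and 4 lay above both of replicates 1 and 3, and 23 were lowest in replicate 3. The share of all 9062 genes with this split was not counted. A tilt the same way was general, since of the 12296 detected genes 6169, 7649, 4499 and 7215 lay above their own mean in replicates 1 to 4. RNU11, a spliceosomal RNA of the minor spliceosome, had 5.26, 16.3, 5.44 and 15.1 CPM, SNORA23 23.3, 54.5, 19.7 and 53.1 CPM and SNORD97 9.78, 16.5, 5.42 and 17.8 CPM. The long nuclear RNA NEAT1, the core of paraspeckles, had 25.2, 56, 30.2 and 61.4 CPM, and RPPH1 333, 577, 377 and 579 CPM, with the same pair of libraries high. Without replicate 3 the number of variable genes was 15, so most of the number rests on that library. The detected H/ACA snoRNA genes as a list deviated from their means by a median log2 of -0.31, 0.37, -0.34 and 0.29 in the 4 libraries, the C/D genes by -0.09, 0.32, -0.47 and 0.28 and the Cajal body genes by -0.15, 0.27, -0.43 and 0.39. Histone genes moved less (-0.08, 0.18, -0.17 and 0.07), and the epithelial and proliferation lists stayed near 0. The share of all counts on snoRNA rows was 0.0776, 0.113, 0.0702 and 0.107%. The parts of the labelling arm and of library preparation in this pattern were not tested.

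**Figure D5:**
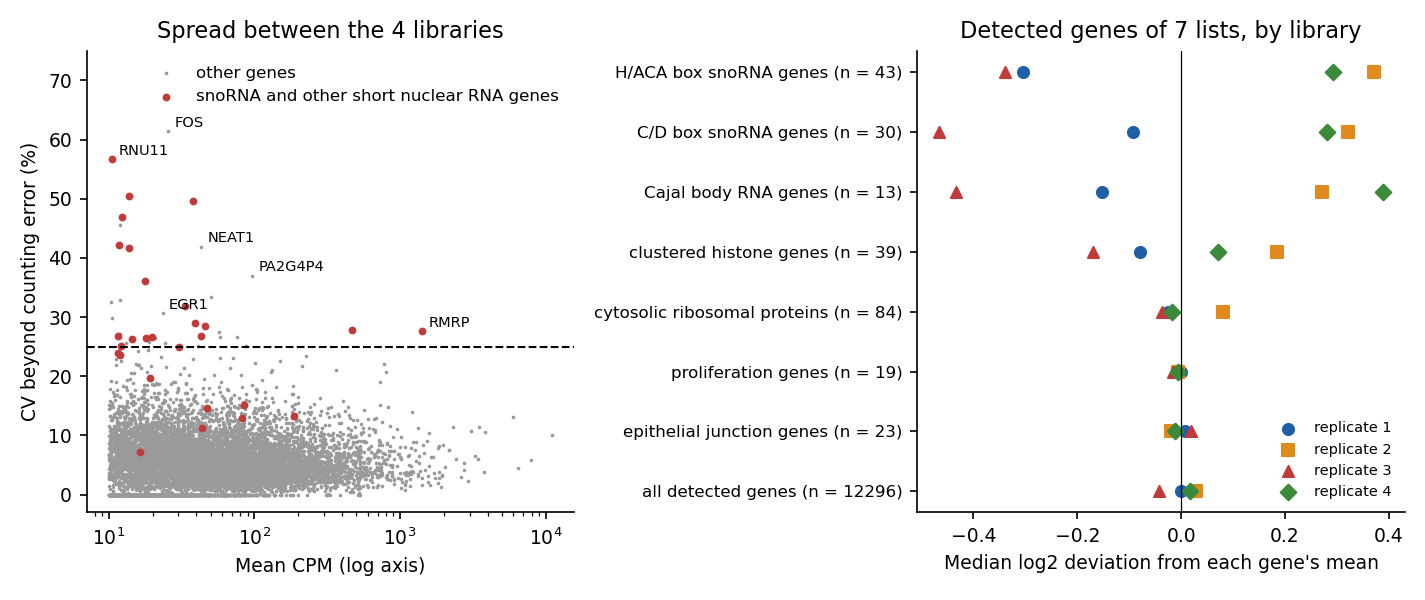
Left, CV beyond counting error over the 4 libraries (vertical axis, percent) against mean CPM (log axis) for the 9062 genes of at least 10 CPM, with snoRNA and other short nuclear RNA genes in red and the 25% line dashed. Right, median log2 deviation of each library (symbols) from the mean of each gene for the detected members of 7 lists and for all detected genes, where replicates 2 and 4 lie above 0 and replicates 1 and 3 below it for the 3 lists of small nuclear RNA genes.

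Other variable genes did not show that split of the libraries. FOS, an immediate-early transcription factor induced within minutes by serum or stress, had 17.4, 15.3, 20.4 and 48.7 CPM, high in replicate 4, and its relative FOSB 9.06, 9.01, 12.3 and 17.4 CPM. EGR1, another immediate-early factor, had 18.1, 18.9, 33.8 and 22.8 CPM, highest in replicate 3, as was TNFRSF12A, a receptor of the TNF family, at 72.5, 83.3, 120.3 and 75.4 CPM. FOS had the largest CV beyond counting error of the 9062 genes, 61.4%. The pseudogene PA2G4P4 had 85.2, 77.4, 149 and 73.1 CPM, and LENG1 10.1, 9.26, 14.9 and 7.5 CPM, both highest in replicate 3. In contrast to these, the metallothionein MT1E had 70.1, 97, 50.02 and 84.6 CPM and the histone gene HIST1H3H 51.9, 73.1, 37.4 and 65.3 CPM, with replicates 2 and 4 above replicates 1 and 3 as in the small nuclear RNA genes. CRBN, CSNK1A1, ZFP91, GAPDH, KRT19 and EPCAM had CVs of 8.79, 3.47, 5.2, 1.67, 6.58 and 4.12%.

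Some levels depend on how reads were assigned to rows. Reads on overlapping rows may appear in both rows. The read-through row NME1-NME2 held 108933 counts over the 4 libraries, 82.5% of the sum of NME1 and NME2. The HSPE1-MOB4 and RPL36A-HNRNPH2 rows held 94.9 and 95.1% of the sums of their parts. Among detected read-through rows this share ran from 11.9% (RBAK-RBAKDN) to 191% (PRH1-PRR4), and ZFP91-CNTF held 46.8%. In the chromosome 6 region from 28 to 34 Mb, which holds the HLA genes, 171 of 230 rows had a deposited width at least 3 times the GENCODE exon length, which lowers their level per kilobase. TUBB, a beta-tubulin with 1811 ± 35.5 CPM, stood at 82.7 ± 1.62 by its deposited width of 21889 bases and at 445 by the GENCODE length of 4071 bases, and HLA-C and HLA-B at 9.13 ± 0.55 and 4.14 ± 0.156 and at 44.3 and 13.9. Near-identical copies are uncertain. EIF3C and EIF3CL, both at 0 counts, had 49.7 and 34.6% unique 50-base stretches in their longest transcript. In the inducible HSP70 pair HSPA1A had 0, 1, 1 and 1 counts with 24.9% unique stretches, while HSPA1B had 87.5 ± 8.25 CPM with 28.4%. How reads were divided between copies was not tested. Of protein-coding rows with 0 counts 11.9% had fewer than 50% unique stretches, against 0.815% of detected rows.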

How the data were processed

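Total RNA was extracted with a spin-column kit, converted into libraries with a ScriptSeq v2 kit and sequenced on an Illumina HiSeq instrument. The submitters' processing notes name bcl2fastq 2.17. The authors aligned the reads to hg19 (GRCh37) with QuasR, allowing spliced alignment, and deposited raw exonic counts per UCSC known gene, without normalization, beside the exonic width of each gene. The QuasR and aligner versions, the strand setting and the treatment of ribosomal RNA are not given in the sources used here. The 4 DMSO columns were used, the lenalidomide columns were not, and 0 columns lacked a sample. The 70 rows without a symbol held 0.0219% of the counts and were kept.

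CPM was computed from the column totals (35268940 to 37473413) and divided by the width in kilobases. Calculations used Python 3.11.15 with pandas 2.3.3 and R 4.3.3 with edgeR 4.0.16, which fitted the common dispersion with an intercept alone after filterByExpr and TMM scaling. That step was tested on simulated counts. CV beyond counting error is the square root of the variance less the Poisson variance, over the mean. Gene types, positions and exon lengths came from GENCODE on GRCh37, and promoters from RefSeq on GRCh38.p14. No test between groups was made.

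Named genes were the 20 highest by CPM and by level per kilobase, up to 6 leading members of each of 93 gene lists, members at 0 counts or on both sides of 1 CPM, the 20 most variable genes, the 3 genes on each side of 1 CPM and the control proteins of the study. Other genes were named after their values were seen, and some genes under this rule are not reported here. The members and lists were chosen with earlier results of these data known. Alternatives were other scalings, detection levels, filters and row sets and leaving out each library. The removal of genes of shared sequence, GENCODE exon lengths and the 200-base limit on variable genes were added after the data were seen.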

Additional observations from a re-analysis of the deposited data

Results flagged for a closer look

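In each group of 4 libraries the gap between an extreme library and its nearest neighbour was divided by the range of the group and compared with Dixon's 95% critical value for 4 samples. Of 228 named genes whose mean reached 1 CPM, 12 had such a library. Chance gives about 1 in 20, so the number flagged was near that of chance. FOS and PA2G4P4 were also named for their spread over these same libraries, so their flags are no separate evidence. None of 12 measures per library, such as the share of counts by gene type, had one. The library apart was replicate 3 in 8 of the 12 genes.

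Replicate 4 was high for FOS (17.4, 15.3, 20.4 and 48.7 CPM in replicates 1 to 4) and for the T-box factor TBX18 (16.3, 16.2, 16.2 and 17.4 CPM). Replicate 3 was high for the pseudogene PA2G4P4 (85.2, 77.4, 149 and 73.1 CPM) and for HRAS (45.7, 44.4, 58.3 and 44.2 CPM). It was low for CTNNB1 (483, 487, 429 and 480.3 CPM), for the cholesterol synthesis gene CYP51A1 (252, 250.4, 211 and 245 CPM) and for the initiation factor subunit EIF3E (696, 680.3, 597 and 688 CPM). It was also low for PCDH7 (195, 195, 162 and 198 CPM), for ABCE1 (536, 545, 473 and 541 CPM) and, by a small margin, for ABCC4 (119, 119, 116 and 119 CPM). Replicate 1 was low for CCND3 (19.2, 21.7, 21.9 and 22 CPM) and replicate 2 for ITGB4 (105, 103, 105 and 105 CPM), whose 4 values otherwise lie within a narrow range. No cause of these single values was tested.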

How the results depend on the processing

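Replicate 3 carried much of the spread. Leaving out 1 library at a time, the common biological coefficient of variation ran from 5.06 to 7.90% against 7.18%, the median CV from 4.87 to 6.97% against 6.72% and the number of variable genes from 15 to 54 against 38, with the lowest value of each without replicate 3. Restricting to genes of 10 CPM in all libraries gave a median CV of 5.68%, a 50% limit left 3 variable genes, and rows of at least 200 exonic bases held 21. With no division by width, 2430 genes reached 100 CPM. With GENCODE exon lengths 359 genes reached 100 CPM per kilobase, and 340 of the 609 matched genes at that level by the deposited width did so by both, so the group of high genes depends on the gene models. The count of detected genes ran from 12122 to 14380 and that of genes with 0 counts from 2418 to 4151 over the alternatives run, both within 1.5 times the reported count, and TMM and RLE scaling left each count within that limit. The number detected per list stayed within 1.5 times in 93 of 93 lists without any 1 library, in 85 at 0.5 CPM and in 72 at 1 CPM per kilobase. No list median moved by more than 1.69% under TMM scaling. No paired analysis was possible because a single group was described and no test was made. A count of 0 limits a level only to 3 counts of the library, and levels of genes that share sequence are uncertain.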

Other observations

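Receptors and channels of excitable cells were detected in a minority of the rows of each family. Of 103 potassium channel rows 23 were detected, led by KCNN4, a calcium-activated channel of epithelia (8.27 ± 0.197 CPM per kilobase), and followed by KCNK1 (5.83 ± 0.177). SCN8A, a voltage-gated sodium channel of neurons, stood at 1.82 ± 0.156 (2 of 14 sodium channel rows detected). GRIN2D and GRIN2B, subunits of the NMDA receptor, stood at 2.31 ± 0.174 and 1.94 ± 0.246, with GRIN1, the subunit that each such receptor needs, at 0.746 ± 0.0835. GABRQ, a GABA receptor subunit, was the highest of its list at 3.4 ± 0.136 (3 of 19 detected).

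Receptors and enzymes at the cell surface differed in the share detected, which was 52.4% over all rows and 61.3% over protein-coding rows. Of the TNF receptor family 12 of 21 were detected (57.1%), between those shares. The death receptors TNFRSF10A and TNFRSF10B, which bind TRAIL, stood at 24.8 ± 2.63 and 18.6 ± 1.21, and the decoy TNFRSF10D at 16.2 ± 0.433, while TNFRSF13B and TNFRSF17 of B cells had 0 counts. MMP15 and MMP14, membrane-bound matrix metalloproteinases, stood at 6.77 ± 0.215 and 1.57 ± 0.145, with 3 of 24 detected and MMP2 at 0 counts. SERPINE2, a protease inhibitor, led the serpins at 19.3 ± 0.227 (9 of 36 detected). Among ABC transporters ABCE1, a factor of ribosome recycling, was highest at 119 ± 7.65. The drug exporters ABCC4, ABCC2 and ABCC1 stood at 18.2 ± 0.241, 15 ± 0.508 and 13.1 ± 0.902. Of 46 ABC transporter rows 25 were detected (54.3%), near the share of all rows and below that of protein-coding rows.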
